A study of Mus musculus with 6 samples.

Results

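The EGF receptor family and its ligands were examined in mouse pancreas cells of a model of preinvasive cancer, with wild-type or floxed p120 catenin. Of 10 listed genes, 9 were measured: the receptors Egfr, Erbb2 and Erbb3 and the ligands Egf, Tgfa, Hbegf, Btc, Ereg and Epgn. A gene counted as measured when a row of the expression table carried its symbol alone, and its brightest such row (highest mean of all arrays) stood for it, which gave 20259 genes in all. No row named Areg alone, and it was not analysed here. The members were listed by name and not by a measured value, though with earlier results of these data known.

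Samples were GFP-positive pancreas cells sorted by FACS from mice of 2 genotypes, KCiMist1G; p120wt/wt (wild type) and KCiMist1G; p120f/f (labelled p120 knockout), with 3 arrays each, numbered as biological replicates. Mice of both genotypes were 7 to 9 weeks old when given tamoxifen, which induces Cre recombination, and the cells were collected 2 weeks later, so the wild-type mice carried the KCiMist1G alleles and received tamoxifen too. The labels do not spell out those alleles or the promoter that drives Cre. They also do not say whether a sample was 1 animal or a pool, so how far the spread between arrays reflects single animals is not known. That spread may also be partly technical. Values are log2 expression from RMA, on which a difference of 1 is a doubling, and a row's level cannot be set against another row's.

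Receptors of this family are tyrosine kinases of the cell surface that act as pairs. Egfr binds ligands and has an active kinase, Erbb2 has no known ligand of its own and serves as a partner, and Erbb3 has a weak kinase and binds neuregulins. Ligands are made as membrane-anchored precursors, and metalloproteases release them from the cell. In mouse pancreas, Tgfa and Egfr are known for driving the change of acinar cells toward a duct-like state, and Egfr signalling is known to be needed for early lesions driven by oncogenic Ras.

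Promoter sequence is shown for 3 members, Egfr, Erbb2 and Tgfa, so that their start regions can be compared. All were lowest on knockout array 1, as were Erbb3, Egf and Ereg, but Egfr differed from Erbb2 and Tgfa on the other arrays, as described further on. Egf, which has entries too, is not shown. RefSeq's table of start regions held 7 of the 10 listed genes, and Erbb3, Ereg and Hbegf had no entry. The lines give the 250 bases before the start, 5′ to 3′ on the + strand of GRCm38.p6, at chr11:16751953-16752202 for Egfr, chr11:98412234-98412483 for Erbb2 and chr6:86194972-86195221 for Tgfa. Capitals mark a GC box, searched as GGGCGG on both strands.
Egfr: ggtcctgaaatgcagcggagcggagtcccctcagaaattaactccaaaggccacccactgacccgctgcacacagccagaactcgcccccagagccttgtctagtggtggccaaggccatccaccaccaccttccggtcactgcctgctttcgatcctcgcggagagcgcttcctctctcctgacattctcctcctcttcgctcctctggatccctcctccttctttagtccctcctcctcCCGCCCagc
Erbb2: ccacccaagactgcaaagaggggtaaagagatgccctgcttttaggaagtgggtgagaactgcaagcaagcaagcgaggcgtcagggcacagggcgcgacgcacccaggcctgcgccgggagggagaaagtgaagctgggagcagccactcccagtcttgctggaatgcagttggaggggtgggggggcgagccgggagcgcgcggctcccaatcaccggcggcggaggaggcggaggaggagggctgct
Tgfa: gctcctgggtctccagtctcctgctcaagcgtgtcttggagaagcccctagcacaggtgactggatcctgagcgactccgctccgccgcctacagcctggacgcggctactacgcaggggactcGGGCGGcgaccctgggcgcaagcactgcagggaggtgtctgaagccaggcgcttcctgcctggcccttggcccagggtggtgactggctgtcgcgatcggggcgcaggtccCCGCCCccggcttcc
Egfr held 1 GC box, starting 9 bases before the start, and Tgfa held 2, starting 126 and 15 bases before it. The Erbb2 window held none. A GC box was found in 32.7% of all 32851 start regions of this length. None of the 3 windows held the TATA box letters TATAAA (12.4% of all start regions) or the AP-1 letters TGANTCA (6.7%), both also searched on both strands and with no overlap with the GC boxes. The GC content was 60.8% for Egfr, 66.0% for Erbb2 and 69.2% for Tgfa, against a median of 52.4%. Among protein-coding genes, Epgn, Ereg, Areg and Btc lie next to one another in that order on mouse chromosome 5.

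Before the members, the arrays were checked. Ctnnd1, which encodes p120 catenin, had log2 values of 5.61, 6.61 and 6.38 in knockout and 5.87, 6.81 and 6.44 in wild type, which overlap. Its difference was -0.17 (SE 0.32, limma adjusted p = 0.922), so the single Ctnnd1 row did not separate the groups, and directions below follow the labels. Knockout array 1 stood apart: on the first principal component, with 51.7% of the variance, it scored -38.1 against 28.4 and 37.1 for the other knockout arrays and -14.9 to -4.16 for wild type. Acinar markers were present on every array, with a list mean of 10.5 to 11.3.

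No difference between the genotypes was called for any member of the family. With limma, 0 of 9 members passed an adjusted p of 0.05 and 0 of 9 passed an unadjusted p of 0.05, against 0.00% and 3.49% of all genes. No member had all knockout arrays on one side of all wild-type arrays, which 8.69% of all genes had. The difference was above 0 for 8 members and below 0 for Epgn, with a median of 0.086 against 0.055 over all genes, of which 12497 of 20259 were above 0. Over the 9 members the 95% confidence intervals ran from a fold of 0.614 for Egfr at the lowest to 2.06 for Erbb3 at the highest. The narrowest were those of Ereg (0.864 to 1.30) and Epgn (0.732 to 1.13). Both were dim, at percentiles 27.1 and 14.3 of level over all genes, where RMA understates differences. For each gene a change inside its own interval was not excluded by 3 arrays a group.

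**Figure D1:**
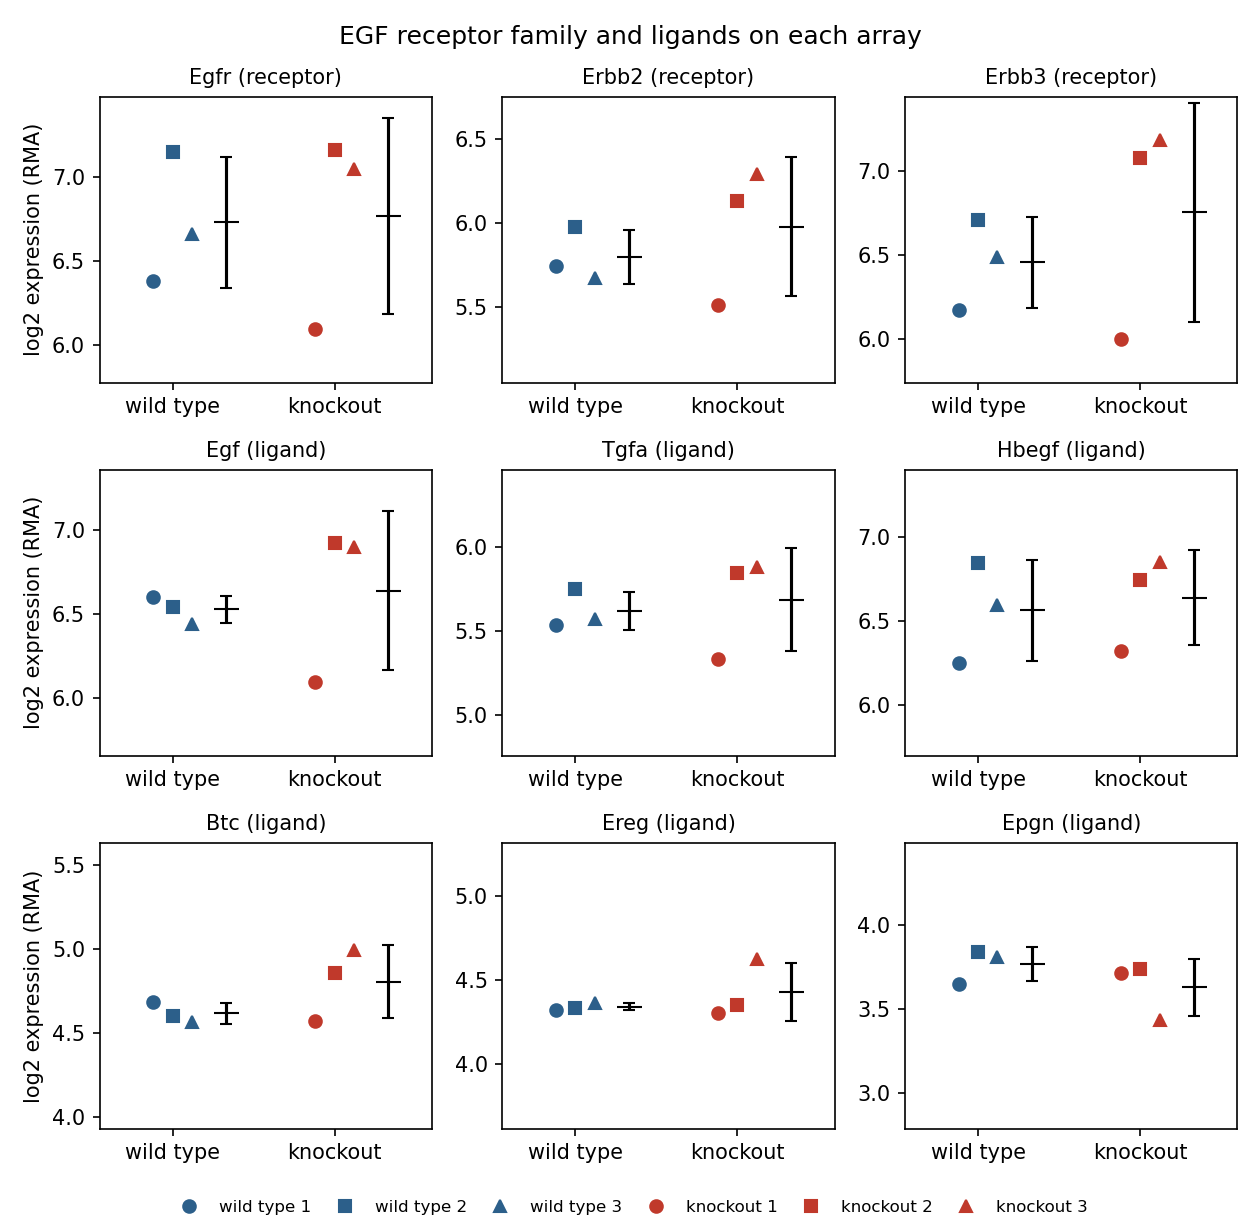
Log2 expression (vertical axes, each spanning the same number of log2 units) of the 9 measured members on the 3 wild-type arrays (blue) and 3 knockout arrays (red), with black bars for the group mean and SD (n = 3). Knockout array 1 (red circle) lies below the other knockout arrays for every member except Epgn, and the groups overlap for all 9.

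Among the receptors, Erbb3 varied most. Its log2 values were 6.004, 7.08 and 7.18 on knockout arrays 1 to 3 and 6.17, 6.71 and 6.49 on wild-type arrays 1 to 3. Knockout array 1 was the lowest of the 6 and knockout arrays 2 and 3 were the highest, so the knockout group lay on both sides of wild type. The means were 6.75 ± 0.65 and 6.46 ± 0.27 (SD, n = 3), a difference of 0.30 (SE 0.32, 95% confidence interval -0.45 to 1.04, limma adjusted p = 0.907).

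Erbb2, the partner receptor without a ligand of its own, was arranged like Erbb3. It measured 5.51, 6.13 and 6.29 in knockout and 5.75, 5.98 and 5.67 in wild type. Again knockout array 1 lay below and knockout arrays 2 and 3 above all wild-type arrays. The difference was 0.18 (SE 0.21, limma adjusted p = 0.908). A second, dimmer Erbb2 row gave -0.23 (SE 0.15), so the direction for Erbb2 depended on the row, and the mean of both rows gave -0.027.

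Egfr, the receptor that binds all the ligands measured here, had nearly the same mean in both groups. Its values were 6.10, 7.16 and 7.04 in knockout and 6.38, 7.15 and 6.66 in wild type. Wild-type array 2 lay between knockout arrays 2 and 3, so the groups interleaved, and knockout array 1 was again the lowest. The means were 6.77 ± 0.58 and 6.73 ± 0.39 (SD, n = 3), a difference of 0.037 (SE 0.32, 95% confidence interval -0.70 to 0.78, limma adjusted p = 0.983), which became -0.047 with the arrays shifted to 1 median.

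Among the ligands, Egf had the widest range over the 6 arrays (0.83 log2 units). Egf, the founding ligand of the family, measured 6.09, 6.92 and 6.90 in knockout and 6.60, 6.54 and 6.44 in wild type. The SD was 0.47 in knockout and 0.080 in wild type (n = 3), and knockout array 1 lay below all wild-type arrays while the other knockout arrays lay above them. The difference was 0.11 (SE 0.23, limma adjusted p = 0.931).

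Tgfa, a ligand of Egfr made by many epithelia, had the same arrangement over a smaller range. Its values were 5.34, 5.84 and 5.88 in knockout and 5.54, 5.75 and 5.57 in wild type, a difference of 0.066 (SE 0.17, limma adjusted p = 0.944) that became -0.018 with the arrays shifted to 1 median. Hbegf, the heparin-binding ligand, measured 6.32, 6.74 and 6.85 in knockout and 6.25, 6.85 and 6.59 in wild type. For Hbegf the lowest array was wild-type array 1, and the groups covered nearly the same range, with a difference of 0.075 (SE 0.20, limma adjusted p = 0.946) that became -0.0088 with that shift.

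Btc, betacellulin, a ligand of Egfr and of Erbb4, measured 4.57, 4.86 and 4.996 in knockout and 4.69, 4.60 and 4.57 in wild type. Knockout arrays 2 and 3 lay above wild type and knockout array 1 lay within it. The difference was 0.19 (SE 0.14, 95% confidence interval -0.14 to 0.52, limma adjusted p = 0.907), with an exact two-sided permutation p of 0.3.

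Ereg and Epgn, epiregulin and epigen, had the smallest SD over the 6 arrays of the 9 members (0.12 and 0.15). They also had the lowest mean levels of the 9. Ereg measured 4.31, 4.35 and 4.62 in knockout and 4.32, 4.33 and 4.36 in wild type, where only knockout array 3 stood out, and the difference was 0.086 (SE 0.13). A second, dimmer Ereg row gave 0.043 (SE 0.22). On that row knockout array 3, at 2.51, was the lowest knockout array, so its high Ereg value depended on the row. Epgn measured 3.72, 3.74 and 3.44 in knockout and 3.65, 3.84 and 3.81 in wild type, a difference of -0.14 (SE 0.13). On knockout array 3, where the brighter Ereg row was highest, Epgn was lowest. Limma's adjusted p was 0.910 for Ereg and 0.907 for Epgn. Over the 9 members the exact permutation p ran from 0.3 to 0.9, where 0.1 is the smallest that 3 arrays against 3 can give.

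The spread was larger within the knockout group than within wild type for most members, as for most genes. Knockout array 1 was the lowest of all 6 arrays for 6 of 9 members, all 3 receptors among them, and it was the lowest for 29.5% of all genes. Knockout array 1 below, and knockout arrays 2 and 3 above, all wild-type arrays was found for Egf, Tgfa, Erbb2 and Erbb3, and for 15.4% of all genes. This arrangement was picked out after the values were seen. The SD was larger in knockout than in wild type for 8 of 9 members, Hbegf being the exception, and for 70.2% of all genes. Knockout array 1 minus the mean of knockout arrays 2 and 3 was -1.13 for Erbb3, -1.01 for Egfr, -0.82 for Egf and -0.70 for Erbb2, in log2 units.

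Leaving out knockout array 1 moved 8 differences up. Erbb3 then differed by 0.67 (SE 0.17, limma adjusted p = 0.0766), Erbb2 by 0.41 (SE 0.13, 0.106), Egf by 0.38 (SE 0.099, 0.0812) and Btc by 0.31 (SE 0.10, 0.119), with adjusted p last in each bracket. No member passed an adjusted p of 0.05 (0.00987% of all genes did), and these 4 passed an unadjusted p of 0.05 toward higher values, as did 18.5% of all genes. Without that array 5 members, those 4 and Tgfa, had both remaining knockout arrays above all wild-type arrays, as did 34.2% of all genes. Egfr differed by 0.37 (SE 0.22) and still overlapped. Without knockout array 3 the differences were 0.083 for Erbb3, 0.024 for Erbb2, 0.094 for Btc and -0.021 for Egf. Egf and Erbb3 were each at an adjusted p under the threshold with limma's array weights alone (0.0368 and 0.0312), a fit that gave knockout array 1 a weight of 0.142 and knockout array 2 a weight of 8.57, and in which 4797 genes passed.

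**Figure D2:**
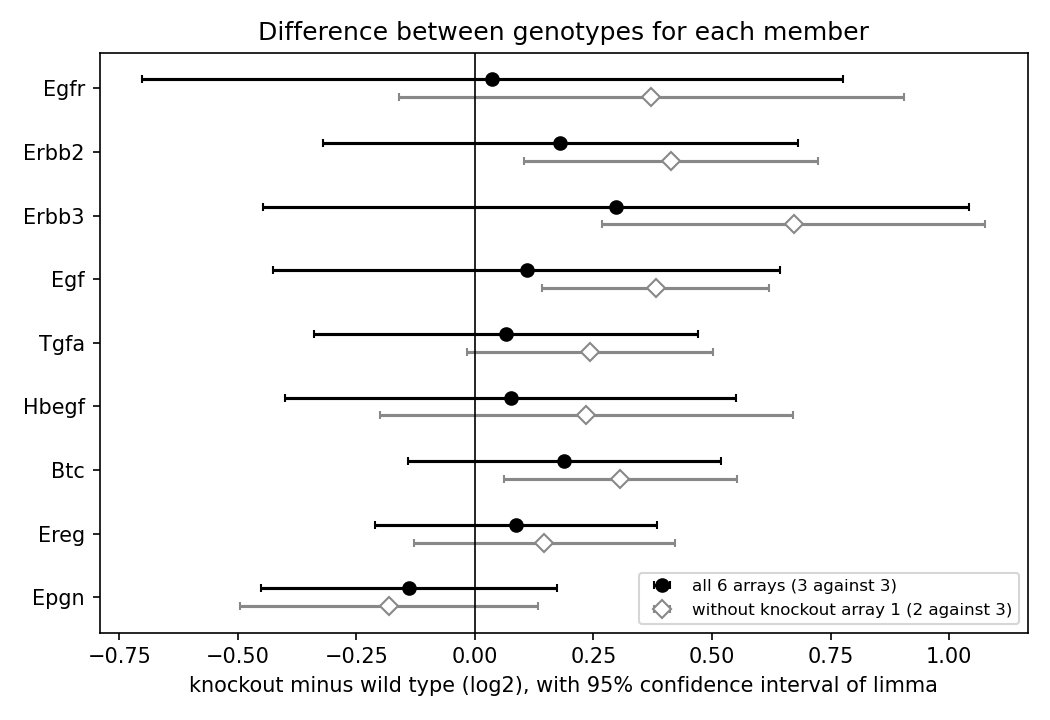
Knockout minus wild-type difference in log2 units (horizontal axis) with its 95% confidence interval from limma for each member, with all 6 arrays (black) and without knockout array 1 (grey diamonds). With all 6 arrays every interval includes 0; without knockout array 1 those of Erbb3, Erbb2, Egf and Btc do not, and none of these passed the adjusted threshold.

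Markers of other cells moved over the arrays as well. Lower signal from fewer cells of a type and from less RNA per cell cannot be told apart in sorted bulk samples. The mean of 11 duct and general epithelial genes, brightest for the keratin gene Krt8 and the mucin gene Muc1, was 7.08, 7.68 and 7.74 in knockout and 7.23, 7.68 and 7.36 in wild type. This mean too was lowest on knockout array 1 and next lowest on wild-type array 1, like Egfr, Erbb3, Tgfa and Ereg. The acinar, fibroblast and endothelial list means had the same lowest and next lowest arrays. The mean of 11 acinar genes, brightest for the elastase gene Cela1 and the zymogen granule gene Gp2, was 10.5, 11.3 and 11.3 in knockout and 10.99 to 11.1 in wild type. B cell markers (8 genes, brightest for Cd79a and Fcmr) ran the other way, at 9.10 on knockout array 1 against 7.77 and 7.77 on the other knockout arrays and 8.49 to 8.72 in wild type. Macrophage markers (13 genes, brightest for C1qb and Cd68) were at 7.49 on knockout array 1 and 6.29 and 6.54 on the others, with 6.74 to 7.78 in wild type. Their part in the values of the family was not tested.

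The other marker lists did not all order the arrays alike. Neutrophil, basophil and mast cell markers (13 genes, brightest for Ngp and S100a8) were at 6.27 on knockout array 1, 5.28 to 5.35 on the other knockout arrays and 5.66 to 5.95 in wild type. T, NK and innate lymphoid markers (9 genes, brightest for Il7r and Cd3e) were at 6.50 to 6.93 in knockout and 6.87 to 7.28 in wild type. Fibroblast markers (13 genes, brightest for Col1a1 and Col6a1) were highest on wild-type array 2, at 6.58, with 5.60 on wild-type array 1, 5.91 on wild-type array 3 and 5.35 to 5.90 in knockout. That array was also where the wild-type values of Egfr, Erbb2, Erbb3, Tgfa, Hbegf and Epgn were highest. It was the highest wild-type array for the macrophage, endothelial, duct, immediate early, and neutrophil, basophil and mast cell lists too. For the acinar, islet, B cell, and T, NK and innate lymphoid lists it was not. Endothelial markers (10 genes, brightest for Pecam1 and Eng) were at 5.003 to 5.68 and 5.08 to 5.80, and islet markers (11 genes, brightest for Ppy and Sst) at 5.93 to 6.32 and 6.21 to 6.48, in knockout and wild type. Differences were below 0 for 9 of 9 T, NK and innate lymphoid genes, 8 of 8 B cell, 12 of 13 macrophage, 9 of 13 neutrophil, basophil and mast cell, 11 of 13 fibroblast, 8 of 11 islet, 12 of 18 immediate early, 6 of 11 acinar, 4 of 10 endothelial and 2 of 11 duct genes. Over all genes the difference was below 0 for 7762 of 20259. In limma no gene of these lists passed the adjusted threshold, and 3 T, NK and innate lymphoid, 2 islet, 2 immediate early, 1 duct and 1 fibroblast gene passed an unadjusted p of 0.05, as did 3.49% of all genes. The fibroblast, endothelial and islet lists were, like the epithelial lists, lowest on knockout array 1. The 18 immediate early genes, which respond to tissue dissociation and were brightest for Btg2 and Dusp1, had a list mean of 9.03 on knockout array 1 and 8.53 to 8.97 on the other 5 arrays, and their part in the values of Hbegf and Ereg was not tested.

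**Figure D3:**
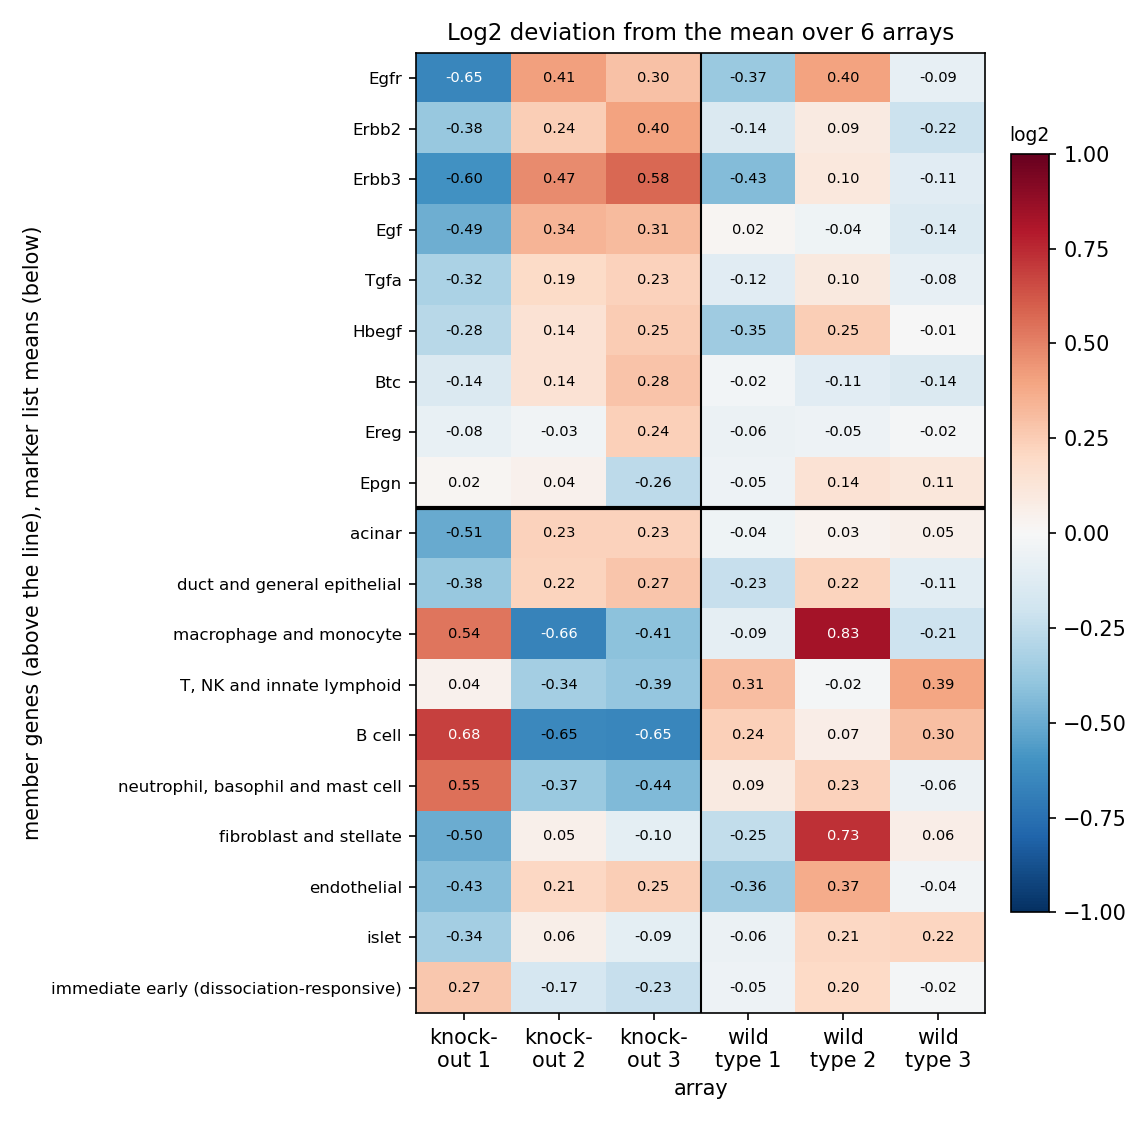
Log2 deviation of each member (above the line) and of each marker list mean (below) from its mean over the 6 arrays, by array, with the value printed in each cell. The receptors, Egf and the acinar and duct lists are lowest on knockout array 1, where the B cell list is highest.

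Erbb3, the member with the widest range over the 6 arrays (1.18), was set against all named genes by the root mean square difference of values centred on each gene's mean. Of 17570 genes, Rai14 (0.029 log2 units), Met (0.053) and Zfp623 (0.058) were nearest. Met, the receptor for hepatocyte growth factor and itself a receptor tyrosine kinase, measured 5.55, 6.52 and 6.57 in knockout and 5.60, 6.10 and 5.89 in wild type. Within the family Egfr came closest to Erbb3 (0.17, rank 233), then Erbb2 (0.20, rank 442) and Egf (0.23, rank 957), and Epgn was farthest (0.50, rank 12664). All of these rest on the same 6 arrays, and knockout array 1 contributes the largest deviation of Erbb3.

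**Figure D4:**
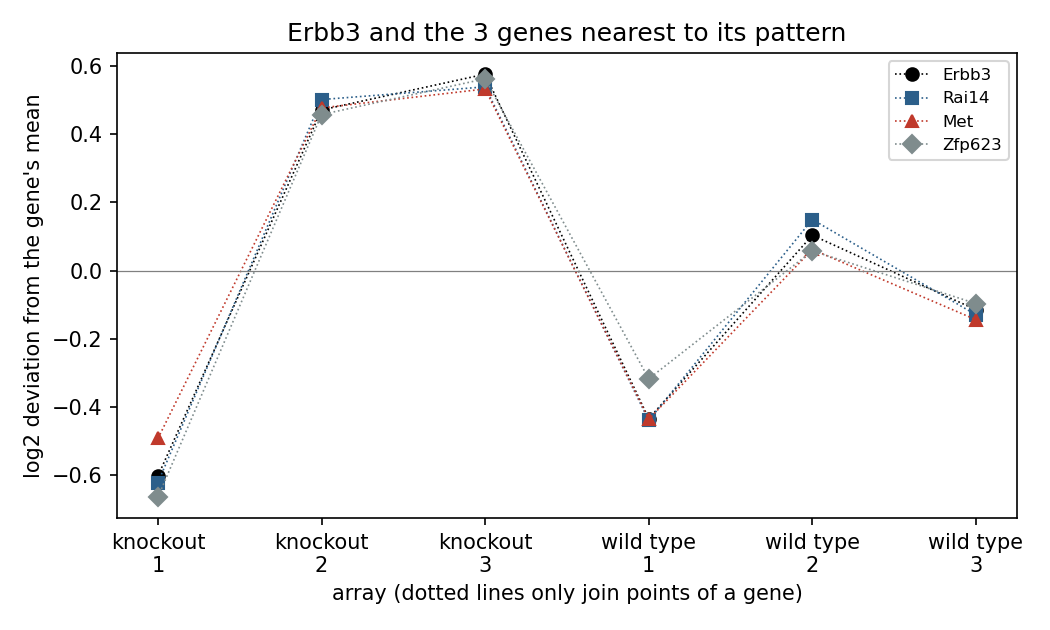
Log2 deviation of Erbb3, Rai14, Met and Zfp623 from each gene's own mean (vertical axis) on the 6 arrays. All 4 are lowest on knockout array 1 and highest on knockout array 3.

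Around the receptors, 59 of 68 listed pathway genes were measured, and in limma 0 passed an adjusted p of 0.05 in either direction. At an unadjusted p under 0.05 there was 1 higher and 0 lower, against 2.31% and 1.19% of all genes. The difference was above 0 for 23 and below 0 for 36, with a median of -0.061 against 0.055 over all genes, of which 7762 of 20259 were below 0. The single gene was Nck2, an adaptor that links receptor tyrosine kinases to actin regulators. It measured 6.17, 6.52 and 6.65 in knockout and 6.05, 5.88 and 6.12 in wild type. All knockout arrays lay above all wild-type arrays, with a difference of 0.43 (SE 0.16, adjusted p = 0.907, exact permutation p = 0.1). With the mean of the Nck2 rows the difference was 0.17 (limma adjusted p = 0.909) and no longer passed the unadjusted threshold. It also no longer passed it when knockout array 2, knockout array 3, wild-type array 1 or wild-type array 2 was left out. Without knockout array 1, 8 pathway genes were higher and 11 lower at an unadjusted p of 0.05, beside 18.5% and 10.8% of all genes, and 0 passed the adjusted threshold.

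Of 15 adaptors and exchange factors, 5 were above 0 and 10 below. Plcg1, the phospholipase that active receptors recruit, was at 6.56, 6.62 and 6.68 in knockout and 6.88, 6.70 and 6.93 in wild type, without overlap, and its difference of -0.22 (SE 0.12) had an adjusted p of 0.907 in limma. Of 19 genes of receptor down-regulation and endocytosis, 6 were above 0 and 13 below. Usp8, a deubiquitinase that acts on internalised receptors, differed by -0.16 (SE 0.11) without overlap, and Cbl, the ubiquitin ligase of Egfr, by -0.25 (SE 0.20) with overlap. Without knockout array 1 the Cbl difference was -0.47 (limma adjusted p = 0.0643) and passed the unadjusted threshold, and it was -0.13 without knockout array 2 or 3. Nck1 (-0.16) was the other pathway gene whose groups did not overlap, named after its values were seen, so 4 of 59 did not, beside 8.69% of all genes.

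Of 11 genes of ligand shedding, 5 were above 0 and 6 below. Adam10, a metalloprotease that releases Egf and Btc, measured 7.19, 7.14 and 6.88 in knockout and 7.11, 7.40 and 7.33 in wild type (difference -0.21, SE 0.14). Rhbdl2, a rhomboid protease, differed by 0.21 (SE 0.13). Among 11 measured genes of the Ras, Raf, MAP kinase and PI3 kinase steps, 5 were above 0 and 6 below, with Braf, the kinase below Ras, at -0.38 (SE 0.26) and Pik3r1, the regulatory subunit of PI3 kinase, at -0.26 (SE 0.15). Of the remaining receptor and neuregulins, 3 of 5 were measured, with Nrg1, a ligand of Erbb3 and Erbb4, at -0.17 (SE 0.18) and Nrg4, a ligand of Erbb4, at 0.065 (SE 0.11). With all 6 arrays none of these 6 passed an unadjusted p of 0.05 in limma. Without knockout array 1 Braf was at -0.65 (limma adjusted p = 0.0947) and passed the unadjusted threshold, and without knockout array 3 at -0.11. Nrg1 was at -0.0056 without wild-type array 3.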

How the data were processed

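The authors deposited log2 values for the 6 arrays in a single table, made with RMA and Partek (no versions) per the submitters' processing notes. RMA compresses dim values, so differences of dim genes are understated. Genome build, detection calls and scan dates were not given in the sources used here. Batches and background were therefore not examined. Array medians ran from 4.08 to 4.25, so the scale is log2 but the centring between arrays is not fully known. Direction is knockout minus wild type as labelled. Precision is limited by 3 arrays per group.

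Of 115830 rows, 25539 had 1 gene symbol in the platform annotation, 2300 had several and 87991 were unnamed here. The row with the highest mean stood for each of 20259 genes. Differences were fitted with limma 3.58.1 in R 4.3.3 (lmFit, eBayes, no trend, no filter), with Benjamini-Hochberg adjustment over all genes. The fit was tested on simulated data. Members and lists were chosen with earlier results of these data known. The text names all members, pathway genes at an unadjusted p under 0.05 and otherwise the 2 smallest p of each sub-list, the 3 genes nearest in pattern to the widest-ranging member (predicted genes left out), and the 2 brightest markers of each list. Promoters and neighbours come from RefSeq (GRCm38.p6). Alternatives were other normalizations, rows, filters, variance models, array weights, the replicate number as a block, and leaving out single arrays.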

Additional observations from a re-analysis of the deposited data

How the results depend on the processing

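With 15 alternatives, 115 of 131 member differences kept their sign and stayed above the adjusted threshold, 14 changed sign and 2 (Egf and Erbb3, with array weights) passed it. With the arrays shifted to 1 median, Tgfa was -0.018, Hbegf -0.0088, Egfr -0.047 and Nrg4 -0.019, and after a further quantile normalization Nrg4 was -0.021. With the mean of rows Erbb2 was -0.027 and Nrg1 0.0055, and with the row of largest interquartile range Cbl was 0.12. Leaving out 1 array at a time gave -0.033 to 0.38 for Egf, -0.032 to 0.24 for Tgfa, -0.012 to 0.15 for Ereg, -0.082 to 0.23 for Hbegf, -0.16 to 0.37 for Egfr, 0.024 to 0.41 for Erbb2, 0.083 to 0.67 for Erbb3, 0.094 to 0.31 for Btc and -0.20 to -0.041 for Epgn. For Erbb2, Erbb3 and Btc the lowest came without knockout array 3 and the highest without knockout array 1. The cause of the sign changes was not tested.

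Leaving out 1 array gave 0 to 2 genes past the adjusted threshold, 0 to 4 members past an unadjusted p of 0.05, 0 to 5 members without overlap and 0 to 19 pathway genes past an unadjusted p of 0.05. The highest of each came without knockout array 1, where 5938 of all 20259 genes passed an unadjusted p of 0.05 in limma. Without wild-type array 1, 1 member (Epgn, lower, a dim gene) did not overlap. The share of all genes without overlap was not counted for that setting, so this count has no background to be read against. With array weights, whose estimation stopped before convergence, 4797 genes, 2 members and 13 pathway genes passed the adjusted threshold. In that limma fit 5 members and 26 pathway genes passed an unadjusted p of 0.05, as did 8729 of all 20259 genes. Pathway genes at an unadjusted p of 0.05 numbered 2 with the arrays shifted to 1 median, 0 with the mean of rows and 2 with the row of largest interquartile range. Of all 20259 genes, 730, 745 and 765 passed that threshold in limma at these settings, in the same order. Epgn did not pass the filter at the 25th percentile of level, and Btc, Ereg and Epgn did not pass the one at the median. The median difference over all genes was 0.055 as deposited, -0.029 with the arrays shifted and 0.028 after quantile normalization.

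Whether replicate numbers pair the samples is not known. Same-numbered arrays had correlations of deviations from the group means of 0.041, 0.14 and -0.15 over all genes, which cannot settle it. With the replicate number as a block, 0 genes, 0 members and 0 pathway genes passed the adjusted threshold in limma. In that fit 0 members and 1 pathway gene passed an unadjusted p of 0.05, as did 652 of all 20259 genes. The SE with the block was 0.18 for Egfr, 0.20 for Erbb3 and 0.16 for Hbegf, against 0.32, 0.32 and 0.20 without it. It rose for Ereg, Btc and Epgn, to 0.15, 0.17 and 0.16.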
